A study of Mus musculus with 4 samples.

Results

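The 34 genes described here mark astrocytes, the star-shaped glia that fill the optic nerve between its axons, or mark the reactive state that astrocytes enter after injury or inflammation. They were chosen by name, as 22 identity genes, from Gfap to Mfge8, and 12 reactivity genes, from Vim to Lcn2, and are 34 of the 55401 genes listed in each library's table. All 34 were found by symbol and all 34 passed the filter on low counts. RNA came from whole mouse optic nerves, in 2 libraries with Dor WT as the genotype label and 2 whose label was Dor cKO. Dor is a synonym of Trp53inp2, and the Dor cKO label names a conditional knockout whose Cre driver, like the sex, age, strain and number of animals per library, is not named in the sources used here. A tag resembling an age stands in the names of both Dor WT tables and is missing from those of the Dor cKO tables.

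Astrocytes hold water and ion channels at their endfeet on vessels, clear potassium and neurotransmitter, store glycogen, and secrete proteins that act on axons and synapses. When they become reactive they raise intermediate filaments, protease inhibitors and acute phase proteins. Much of that response runs through cytokines of the interleukin-6 family, which signal through the receptor subunit gp130 to the transcription factor STAT3, and STAT3 induces its own inhibitor SOCS3. Identity and reactivity genes overlap in practice, and Gfap is used as both.

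Libraries held 17263830 to 21595832 expected counts, and their mean fragment lengths were 260 and 260 bases for Dor WT against 246 and 245 bases for Dor cKO. Trp53inp2 was at 138 and 134 CPM (counts scaled to a common library total) for Dor WT against 105 and 107 CPM for Dor cKO, a log2 fold change of -0.36 (SE 0.04, edgeR adjusted p = 2.73e-08). The defining astrocyte markers were abundant in all 4 libraries, with Gfap, Aqp4, Slc1a3 and Gja1 each at 577 CPM or more, so the labelled tissue holds astrocyte RNA. Nothing in the labels says that the libraries of a group came from separate animals, and p-values measure only the spread between these samples, which may be technical. The spread was small, with a common biological coefficient of variation of 0.0348.

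Most astrocyte genes were higher in Dor cKO by a small amount, and the median of the reactivity genes lay above that of the identity genes, although the identity median turned just below 0 when the scale was set on other astrocyte genes, as described further on. Of the 22 identity genes, 14 rose, 2 fell and 6 did not pass at an edgeR adjusted p under 0.05, with log2 fold changes from -1.28 to 0.47 and a median of 0.17. Of the 12 reactivity genes, 11 rose, 0 fell and 1 did not pass, with log2 fold changes from -0.058 to 1.29 and a median of 0.31. Over all 16751 tested genes, 27.7% were called, 14.3% higher and 13.4% lower, and the median was -0.0036. A rise of at least 0.5 on the log2 scale was called for 0 identity genes and 4 reactivity genes, and for 2.78% of all tested genes. A fall of that size was called for 1 identity gene and 0 reactivity genes, and for 4.08% of all tested genes, which makes 6.87% for both directions together. No test of one list against the other was made. Since RNA came from whole tissue, more or fewer cells of a type and more or less RNA per cell cannot be told apart.

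**Figure D1:**
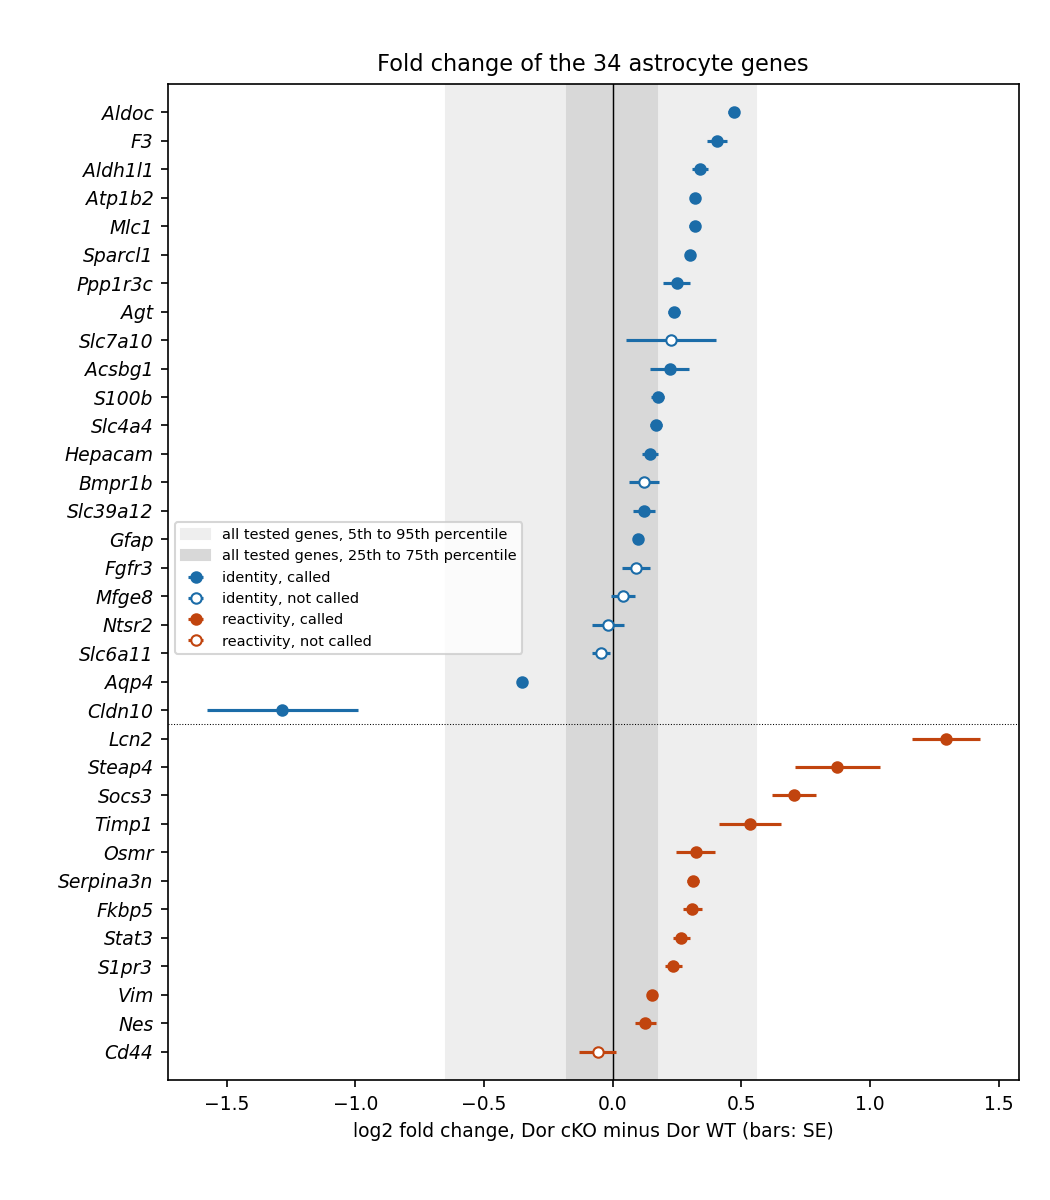
Log2 fold change of each astrocyte gene, Dor cKO minus Dor WT, with its standard error (SE), over the percentile bands of all tested genes, identity genes above and reactivity genes below the dotted line. Filled points passed the test. Of the 22 identity genes, 18 lie between 0 and 0.5 and 4 below 0, of which Aqp4 and Cldn10 passed and Ntsr2 and Slc6a11 did not; Lcn2, Steap4, Socs3 and Timp1 are the reactivity genes above 0.5.

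The libraries of a group lay close together for most genes. The CPM values of the groups did not overlap for 19 of the 22 identity genes and 11 of the 12 reactivity genes, against 60.8% of all tested genes. The exceptions were Ntsr2, Slc6a11, Mfge8 and Cd44, which were also among the 7 genes that did not pass. Summed TPM (transcripts scaled for length and to a common total) of the identity genes were 9793 and 9773 for Dor WT against 10798 and 10808 for Dor cKO, a rise of 10.4%. For the reactivity genes the sums were 2987 and 3017 for Dor WT against 3414 and 3406 for Dor cKO, a rise of 13.6%. Gfap made up most of the first sum and Vim most of the second. With Gfap moved to the reactivity genes the order of these rises turned, to 17.2% for identity and 8.44% for reactivity.

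**Figure D2:**
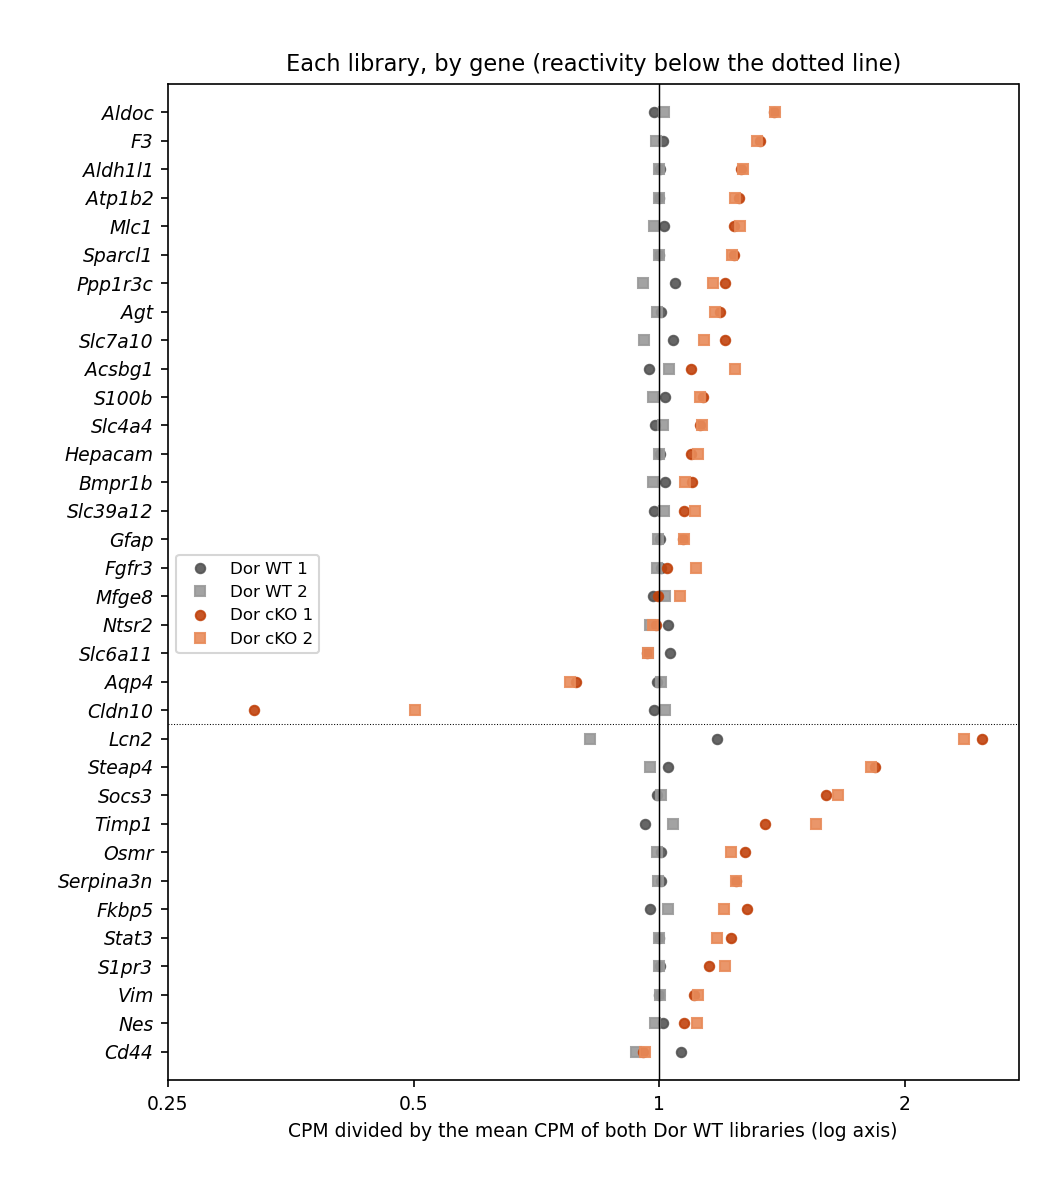
CPM in each library divided by the mean CPM of both Dor WT libraries, on a log axis, by gene. Grey points are Dor WT and red and orange points Dor cKO. Both Dor cKO libraries lie to the right of both Dor WT libraries for 28 of the 34 genes, and to the left for Aqp4 and Cldn10.

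Per length, the 34 genes spanned more than 3 orders of magnitude. Gfap, at 5804 and 5789 TPM in Dor WT, was the highest, followed by Vim at 2401 and 2452 TPM and Sparcl1 at 1371 and 1376 TPM. The next 4 in Dor WT were S100b, Atp1b2, Mlc1 and Aldoc, between 306 and 361 TPM. Aldoc, the lowest of the 4 in Dor WT, was the highest in Dor cKO and S100b went from highest to lowest, with Atp1b2 above Mlc1 in both. In Dor cKO, Aldoc was at 427 and 433 TPM, Atp1b2 at 423 and 420, Mlc1 at 398 and 406 and S100b at 396 and 392 TPM. At the low end were Slc7a10, at 5.86 and 6.83 TPM in Dor WT, Cldn10 at 3.66 and 3.18 TPM and Steap4 at 2.62 and 2.49 TPM. In Dor cKO Steap4, at 4.65 and 4.60 TPM, stood above Cldn10, at 1.60 and 1.68 TPM.

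**Figure D3:**
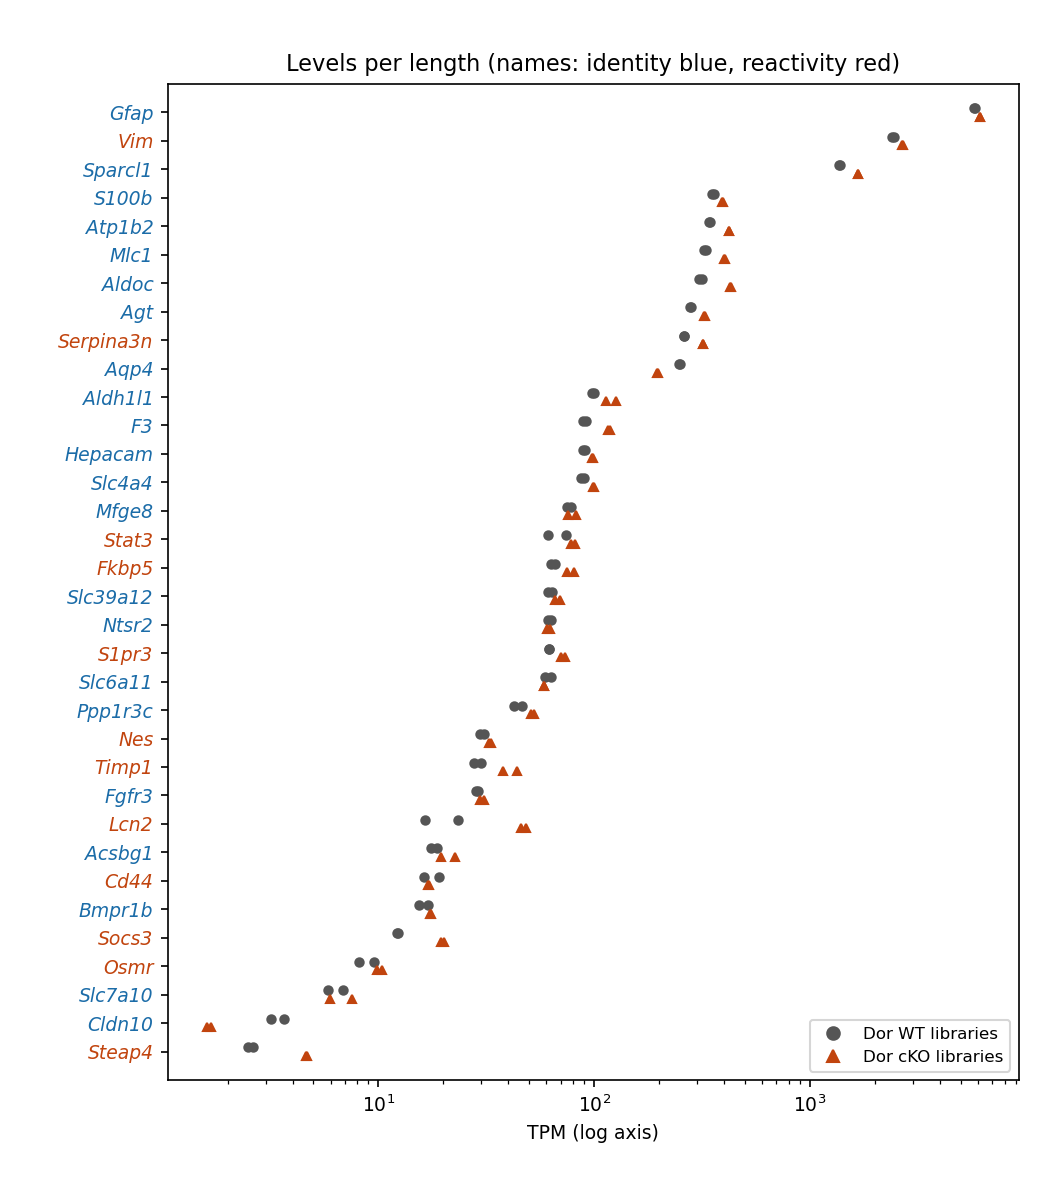
TPM of each astrocyte gene in the 4 libraries on a log axis, in the order of the Dor WT mean, with identity names in blue and reactivity names in red. Circles are Dor WT and triangles Dor cKO libraries. Gfap, Vim and Sparcl1 stand apart at the top, and the reactivity genes other than Vim and Serpina3n lie in the lower part of the range.

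The intermediate filament genes were among those that rose least. Gfap and Vim were lower when the scale was set on other astrocyte genes, which takes 0.21 from every log2 fold change. Gfap (ENSMUSG00000020932.14; GRCm38 chromosome 11, 102887336 to 102900912), which encodes the main filament of mature astrocytes, was at 9553 and 9511 CPM for Dor WT against 10199 and 10229 CPM for Dor cKO. Its rise on the log2 scale was 0.10 (SE 0.01, edgeR adjusted p = 2.38e-10), or 1.07-fold. Vim, which encodes the filament vimentin of immature and reactive astrocytes and also of fibroblasts and endothelium, went from 2093 and 2099 CPM to 2316 and 2340 CPM, 1.11-fold higher. Nes, the nestin gene of neural progenitors, went from 120 and 118 CPM to 127 and 132 CPM and rose by 0.13 (SE 0.04, adjusted p = 0.0142). The groups did not overlap for any of the 3, but Nes no longer passed when replicate 2 of Dor WT (adjusted p = 0.0783) or of Dor cKO (adjusted p = 0.183) was left out, nor with DESeq2 (adjusted p = 0.122) or a correction for length and GC content (adjusted p = 0.122).

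Genes for water and ion transport went both ways. Aqp4 (chromosome 18, 15389496 to 15410982), which encodes the water channel of astrocyte endfeet, was at 738 and 746 CPM for Dor WT against 586 and 577 CPM for Dor cKO. Both Dor cKO libraries lay below both Dor WT libraries, and Aqp4 fell by 0.35 (SE 0.02, adjusted p = 1.3e-14), 1.28-fold lower. Mlc1, an endfoot membrane protein gene, went from 577 and 561 CPM to 702 and 716 CPM and rose by 0.32 (SE 0.02, adjusted p = 3.31e-13). Its partner Hepacam, which encodes the adhesion protein GlialCAM, rose by 0.15 (SE 0.03). Mlc1 and Aqp4 proteins both sit at endfeet, and their transcripts moved in opposite directions here.

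Atp1b2, the astrocyte beta subunit of the sodium pump, was at 631 and 630 CPM for Dor WT against 791 and 782 CPM for Dor cKO, 1.25-fold higher (adjusted p = 6.05e-14). Slc4a4, a sodium bicarbonate cotransporter gene, rose by 0.17 (SE 0.02), and both of its Dor cKO libraries, at 446 and 448 CPM, were above both Dor WT libraries, at 393 and 402 CPM. The zinc transporter gene Slc39a12 went from 102 and 105 CPM to 111 and 115 CPM and rose by 0.12 (SE 0.04, adjusted p = 0.0292). It no longer passed when replicate 1 of Dor WT was left out (adjusted p = 0.124), nor on leaving out either Dor cKO library (adjusted p = 0.0554 and 0.231). The same held for DESeq2 (adjusted p = 0.178) and for scaling by total counts (adjusted p = 0.0723).

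Cldn10, a claudin gene of cell contacts, had 69 and 89 counts for Dor WT against 27 and 42 for Dor cKO. It fell by 1.28 (SE 0.29, adjusted p = 1.14e-03), 2.44-fold lower, and was the lowest value among the identity genes. Claudin-10 is also made by epithelial cells. Most markers of pituitary and ventral hypothalamus moved in the same direction. Of 13 tested members of that list, 10 were lower, 9 of them by at least 0.5 on the log2 scale, and 1 was higher. Over all tested genes, 13.4% were lower, 4.08% lower by at least 0.5, and 14.3% higher. The median log2 fold change of the 13 was -2.30, also with Cga set at its bound of 3 counts per library. Chga, a protein of secretory granules, fell by 2.36 (SE 0.07) and the transcription factor gene Otp by 0.41 (SE 0.12), while the hormone gene Oxt rose by 0.40 (SE 0.07). The summed level of the list changed less, from 1952 and 2064 TPM in the Dor WT libraries to 1727 and 1800 TPM in the Dor cKO libraries. Of the 17 on the list, Pmch was at 0 in all 4 libraries. Cga and Prl were at 0 in both Dor cKO libraries but not in both Dor WT libraries, and Cga was among the genes tested. The part of this list's tissues in the values of Cldn10 and Aqp4 was not tested.

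On the identity list, the genes for handling of neurotransmitters and amino acids did not pass. Slc6a11, a GABA transporter gene of astrocytes in grey matter, was at 168 and 158 CPM for Dor WT against 157 and 158 CPM for Dor cKO, with a log2 fold change of -0.046 (SE 0.04, adjusted p = 0.38). Ntsr2, a neurotensin receptor gene, was at 53.6 and 51.0 CPM for Dor WT against 51.8 and 51.3 CPM for Dor cKO. Slc7a10, an exchanger of serine and glycine, had 106 and 122 counts for Dor WT against 148 and 138 for Dor cKO, with a log2 fold change of 0.23 and the large SE of 0.18. Its exons share 377 of 2111 bases with Lrp3 on the opposite strand, and the sources used here do not say whether counting used strand.

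All 4 metabolic genes of the identity list rose, led by Aldoc. Aldoc (chromosome 11, 78322968 to 78327781), which encodes the brain form of the glycolytic enzyme aldolase, was at 366 and 376 CPM for Dor WT against 514 and 515 CPM for Dor cKO. It rose by 0.47 (SE 0.02, adjusted p = 4.89e-16), 1.39-fold, more than any other of the 22. Aldh1l1, a folate enzyme gene used to label astrocytes, went from 173 and 172 CPM to 218 and 219 CPM and rose by 0.34 (SE 0.03, adjusted p = 5.06e-10). Its exons share 499 of 4516 bases with the antisense gene Gm15756 and 105 with Gm45901 on the same strand. The TPM values of Aldh1l1 were 99.5 and 97.6 for Dor WT against 127 and 113 for Dor cKO. With limma on log2(TPM + 1) Aldh1l1 did not pass (adjusted p = 0.0861). Ppp1r3c, which targets a phosphatase to glycogen, rose by 0.25 (SE 0.05).

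Acsbg1, an acyl-CoA synthetase gene, went from 31.8 and 33.6 CPM to 35.8 and 40.6 CPM and rose by 0.22 (SE 0.08, adjusted p = 0.0303). This call rested on single libraries: with replicate 1 of Dor WT left out the value was 0.18 (adjusted p = 0.128), and with replicate 2 of Dor cKO left out it was 0.13 (adjusted p = 0.41). Nor did Acsbg1 pass with DESeq2 (adjusted p = 0.174), scaling by total counts (adjusted p = 0.0504) or a correction for length and GC content (adjusted p = 0.106).

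Most identity genes for secreted or released proteins rose. Sparcl1, which encodes the matrix protein hevin, went from 2339 and 2343 CPM to 2893 and 2875 CPM and rose by 0.30 (SE 0.01, adjusted p = 2.15e-17). Agt, the angiotensinogen gene, went from 318 and 314 CPM to 375 and 370 CPM, 1.18-fold higher (adjusted p = 5.43e-09). S100b, a calcium-binding protein gene that oligodendrocytes express as well, rose by 0.17 (SE 0.03). Mfge8, which bridges dying cells to phagocytes, did not pass, at 87.6 and 90.8 CPM for Dor WT against 89.0 and 94.5 CPM for Dor cKO.

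Among identity genes for cell surface receptors, F3 alone passed. F3 encodes tissue factor, the receptor that starts coagulation, and went from 99.4 and 97.5 CPM to 131 and 130 CPM, a rise of 0.41 (SE 0.04, adjusted p = 3.25e-09). The growth factor receptor gene Fgfr3 had a log2 fold change of 0.091 (SE 0.05, adjusted p = 0.231). Its exons share 998 of 7158 bases with G630022F23Rik on the opposite strand. The bone morphogenetic protein receptor gene Bmpr1b had 0.12 (SE 0.06, adjusted p = 0.14), and passed after a correction for length and GC content (0.21, adjusted p = 7.44e-03).

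Among the reactivity genes, secreted proteins included the largest rise. Lcn2 (chromosome 2, 32384633 to 32388252), which encodes lipocalin 2, a binder of bacterial iron carriers that reactive astrocytes and neutrophils release, had 185 and 162 counts for Dor WT against 473 and 444 for Dor cKO. That is 10.7 and 7.46 CPM against 22.5 and 21.4 CPM, and the groups did not overlap. Lcn2 rose by 1.29 (SE 0.13, adjusted p = 8.18e-09), 2.45-fold. Neutrophil markers, a list added after these values were seen, rose in 3 of 9 tested members and fell in 0. The share called higher was 33.3%, against 14.3% of all tested genes. Log2 fold changes of these markers ran from -0.67 to 0.94, with a median of 0.39 and 8 of the 9 above 0. Their summed level was 316 and 332 TPM for Dor WT against 385 and 397 TPM for Dor cKO. In both libraries of a group, 0 of the 10 were at 0. The members that rose were S100a9 (0.34), S100a8 (0.39) and Ltf (0.94). Their part in the Lcn2 value was not tested.

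Serpina3n, a serine protease inhibitor gene of the acute phase, was at 326 and 323 CPM for Dor WT against 403 and 404 CPM for Dor cKO, 1.24-fold higher (adjusted p = 1.15e-11). Timp1, an inhibitor of metalloproteinases on the X chromosome, went from 11.6 and 12.5 CPM to 16.2 and 18.7 CPM and rose by 0.53 (SE 0.12, adjusted p = 9.56e-04), 1.45-fold. Steap4, a metalloreductase gene, had 91 and 108 counts for Dor WT against 197 and 193 for Dor cKO and rose by 0.87 (SE 0.17, adjusted p = 1.34e-04). In each of the 3 both Dor cKO libraries lay above both Dor WT libraries.

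Of the receptor genes on the reactivity list, 2 rose and 1 did not pass. Osmr, the receptor subunit for oncostatin M, went from 29.1 and 28.8 CPM to 37.0 and 35.4 CPM and rose by 0.32 (SE 0.08, adjusted p = 1.49e-03). S1pr3, a receptor of the lipid sphingosine-1-phosphate, rose by 0.24 (SE 0.03, adjusted p = 1.03e-06). Cd44, the hyaluronan receptor gene, was the reactivity gene that did not pass, at 43.8 and 38.6 CPM for Dor WT against 39.3 and 39.5 CPM for Dor cKO (adjusted p = 0.622).

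Signalling genes on the reactivity list rose in 3 of 3. Socs3 (chromosome 11, 117966079 to 117970047), the inhibitor that STAT3 induces, had 336 and 424 counts for Dor WT against 653 and 669 for Dor cKO. In CPM it went from 19.3 and 19.5 to 31.1 and 32.2, a rise of 0.70 (SE 0.09, adjusted p = 1.56e-07), 1.63-fold. Stat3 itself went from 166 and 166 CPM to 204 and 196 CPM and rose by 0.27 (SE 0.03, adjusted p = 1.48e-07). Its TPM values were 74.2 and 60.9 for Dor WT against 77.9 and 81.3 for Dor cKO, more spread within Dor WT than the CPM values. Fkbp5, which encodes a partner of the glucocorticoid receptor and is induced by glucocorticoids, went from 135 and 142 CPM to 178 and 167 CPM and rose by 0.31 (SE 0.04, adjusted p = 1.4e-07).

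Because STAT3 and the glucocorticoid receptor act on several of these genes, the 250 bases before each annotated start were read from the RefSeq promoter table (GRCm38.p6), which held 37 windows for 31 of the 34 genes. RefSeq starts can lie inside the span given above, as for Aldoc, Socs3 and Lcn2. The entries not in the table were Aqp4, Atp1b2 and Sparcl1. The STAT palindrome TTCNNNGAA, searched on both strands, was found before 2 of 12 reactivity genes and 4 of 19 identity genes. Counted by window, that is 2 of 12 reactivity windows and 4 of 25 identity windows, against 7.02% of all 32851 windows of that length. The glucocorticoid receptor core ACANNNTGT was found before 2 reactivity genes and 1 identity gene. By window that is 2 of 12 and 1 of 25, against 5.84% of all windows. Neither search overlapped the other motif's matches in these genes. The stretches that follow are 29 bases long, on the gene's strand, with the match in capitals. The strand is minus for Socs3, Agt, Acsbg1 and Lcn2 and plus for the rest. The stretches are shown so that genes that rose can be compared with Ntsr2, which did not pass, and Cldn10, which fell. A match is a stretch of letters and does not show that a factor binds there.
Socs3, STAT palindrome, chr11:117969502-117969530: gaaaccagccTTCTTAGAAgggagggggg
Steap4, STAT palindrome, chr5:7960346-7960374: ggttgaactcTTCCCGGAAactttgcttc
Agt, STAT palindrome, chr8:124569860-124569888: ccagtagggcTTCCTGGAAggggcccaga
Acsbg1, STAT palindrome, chr9:54661893-54661921: gaaggctggcTTCATTGAAattctcctca
Ntsr2, STAT palindrome, chr12:16653398-16653426: gttttggaggTTCCCAGAAaggaggtggt
Aldoc, STAT palindrome, chr11:78324064-78324092: aggggccagaTTCAGTGAAagaagagctg
Aldoc, STAT palindrome, chr11:78324105-78324133: tggcagcagtTTCCAGGAAgacctgtggc
Lcn2, glucocorticoid receptor core, chr2:32387873-32387901: aagtatttcaACAGAATGTactggcaatt
Serpina3n, glucocorticoid receptor core, chr12:104406622-104406650: agcacagagcACAGCTTGTccatgccagc
Cldn10, glucocorticoid receptor core, chr14:118787722-118787750: taaagcctcaACAACGTGTaaacgtaaag

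By log2 fold change, the genes with a STAT palindrome were Steap4 (0.87), Socs3 (0.70), Aldoc (0.47), Agt (0.24), Acsbg1 (0.22) and the uncalled Ntsr2 (-0.018). No STAT palindrome was found before Lcn2 (1.29) or Timp1 (0.53), the other reactivity genes that rose by at least 0.5. Other motifs searched were the AP-1 site TGANTCA, found before F3 alone and in 6.75% of all windows, and the nuclear factor I palindrome (TTGGC, 5 free bases, GCCAA) and the interferon response core (GAAA, 2 free bases, GAAA), found before 0 of these genes and in 0.0365% and 2.98% of all windows.

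Other genes of the same pathways were read from lists beside the 34. Over all tested genes, 14.3% were called higher and 13.4% lower. Of 27 tested genes of the interleukin-6 family and STAT3 signalling, 11 rose, 2 fell and 14 did not pass, with a median of 0.21. Il6st, which encodes gp130, went from 507 and 495 CPM to 586 and 584 CPM, and the kinase gene Jak1 went from 135 and 137 CPM to 158 and 156 CPM. Ptpn11, a phosphatase that couples gp130 to another pathway, fell by 0.12 (SE 0.02). The cytokine gene Il6 itself had at most 0.433 CPM in any library and was not tested. Of 16 glucocorticoid target genes, 11 rose, 0 fell and 5 did not pass, with a median of 0.27. The metallothionein genes Mt1 and Mt2 rose by 0.50 (SE 0.03) and 0.57 (SE 0.03) and the transcription factor gene Klf9 by 0.27 (SE 0.03), while Nr3c1, the receptor gene, which was picked after its value was seen, did not pass (0.062, adjusted p = 0.21).

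The next lists also stand against 14.3% of all tested genes called higher and 13.4% called lower. Among 30 other astrocyte genes, 24 rose, 1 fell and 5 did not pass, with a median of 0.21, between the medians of the identity and the reactivity genes. The most abundant that rose were Apoe, the main lipid carrier of astrocytes (0.28), Glul, which makes glutamine (0.45), and the gap junction gene Gja1 (0.38). Of 29 tested other reactive astrocyte genes, 19 rose, 2 fell and 8 did not pass, with a median of 0.48. The complement gene C4b (0.47), the complement inhibitor gene Serping1 (0.55) and the ceruloplasmin gene Cp (0.51) were the most abundant that rose. Of the interferon responsive genes, 12 of 12 rose, with a median of 1.50, and Ifit3 (1.22), Ifitm3 (0.87) and Ifit2 (0.73) were the most abundant. The part of the interferon response in the 34 astrocyte genes was not tested.

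**Figure D4:**
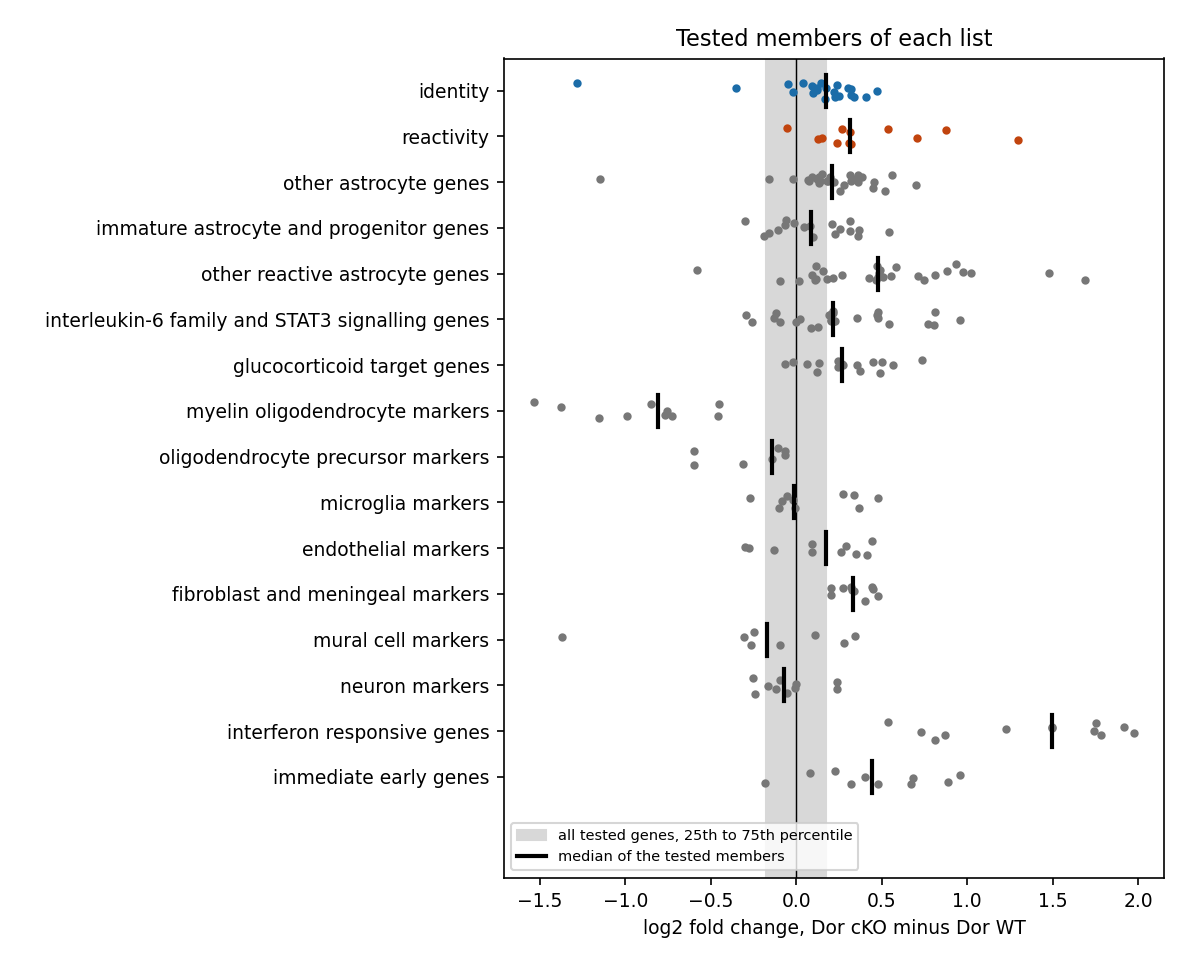
Log2 fold change of each tested member of the astrocyte lists, related pathways and markers of other cell types, with the median of each list as a black bar and the middle range of all tested genes in grey. The identity median is 0.17 and the reactivity median 0.31, and of the lists drawn the interferon responsive genes at 1.50 and the myelin markers at -0.81 lie furthest from 0. The pituitary and ventral hypothalamus list, with a median of -2.30, and the neutrophil list are not drawn.

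Markers of other cell types are given against the 14.3% of all tested genes that were called higher and the 13.4% called lower. Myelin oligodendrocyte markers fell in 10 of 10, and their summed level went from 24607 and 24385 TPM to 14009 and 13957 TPM. Fibroblast and meningeal markers, cells that also express Vim, Timp1, Cd44 and Osmr, rose in 10 of 10 with a median of 0.33, and their summed level went from 4559 and 4518 TPM to 5855 and 5787 TPM. Igf2, Col1a2 and Col1a1 were the most abundant and rose by 0.45, 0.34 and 0.20. Endothelial markers rose in 5 of 10 and fell in 0, microglia markers rose in 4 and fell in 1 of 10, and mural cell markers rose in 1 and fell in 3 of 8. Oligodendrocyte precursor markers fell in 5 of 7, neuron markers rose in 1 and fell in 1 of 10, and immediate early genes rose in 7 and fell in 0 of 10. No marker of these lists was at 0 in both libraries of a group. The part of these cells in the values of the 34 astrocyte genes was not tested.

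To set the 34 genes against the 30 other astrocyte genes rather than all genes, another scaling was chosen after the data were seen. It centred the fit on the median of those 30, which moved every log2 fold change down by 0.21. The shift was taken as exact, although log2 fold changes of the 30 ran from -1.15 to 0.70. Whether the 30 genes measure astrocyte RNA was not tested. Of the identity genes, 6 were then called higher and 6 lower, with a median of -0.036. A median near 0 followed from the shift, since the identity median before it was 0.17. Of the reactivity genes, 6 were higher and 2 lower, with a median of 0.10. Of all calls, 10.5% were then higher, against 51.6% as reported above. Lcn2 remained higher (1.09, adjusted p = 1.35e-07), as did Steap4 (0.66), Socs3 (0.50), Timp1 (0.33), Serpina3n (0.10) and Fkbp5 (0.10). Aldoc (0.26) and F3 (0.20) led the identity genes, with Aldh1l1, Atp1b2, Mlc1 and Sparcl1 also higher. Gfap (-0.11), Vim (-0.057), Mfge8 (-0.17), Ntsr2 (-0.23), Slc6a11 (-0.25) and Cd44 (-0.27) were lower on this scale, and Aqp4 (-0.56) and Cldn10 (-1.49) lower still.

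Of the 27 genes that passed, 24 kept their call when any 1 library was left out, and the exceptions were Acsbg1, Slc39a12 and Nes. With the coefficient of variation set at 0.1 instead of the measured spread, the calls of Aldoc, Cldn10, Lcn2, Steap4, Socs3 and Timp1 were kept and the other 21 were lost. With limma on log2(TPM + 1), 12 calls were kept and 15 lost, Cldn10, Steap4 and Timp1 among them.

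**Figure D5:**
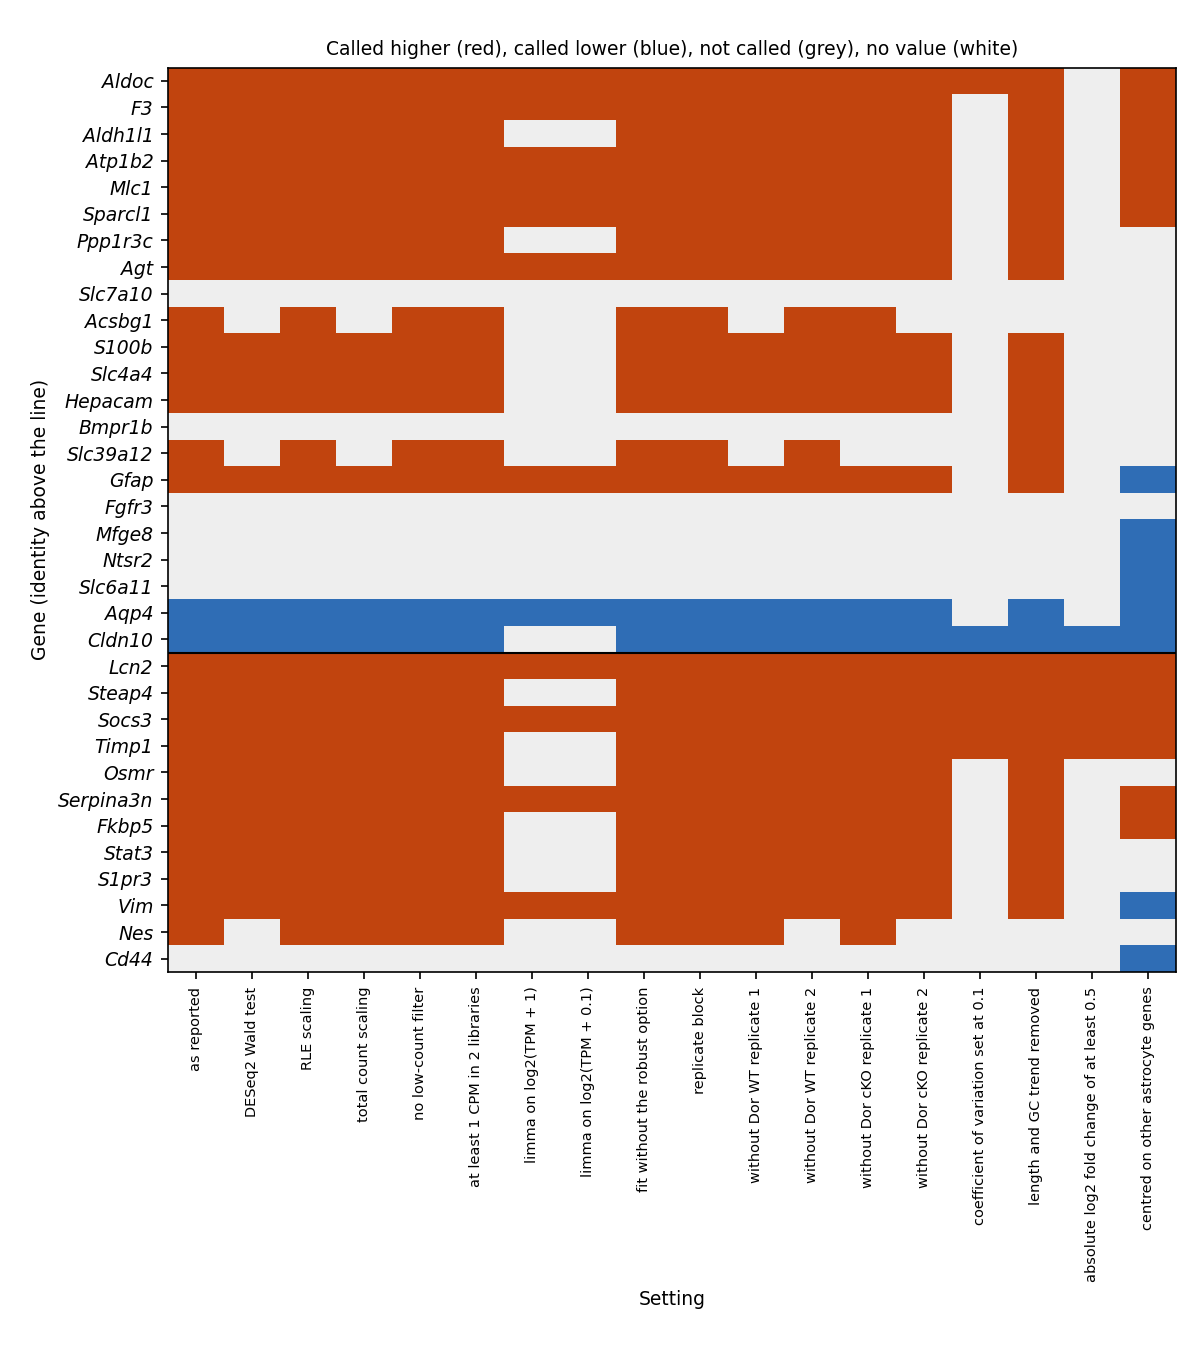
Call of each astrocyte gene as reported and under each alternative setting, with red for higher, blue for lower and grey for not called, and identity genes above the line. Lcn2 and Socs3 are red in every column, and the columns with most grey are limma on TPM, the set coefficient of variation and the minimum fold change.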

How the data were processed

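Per the labels' protocols, RNA was extracted with TRIzol, 2 micrograms went into a stranded mRNA library kit, and paired reads of 150 bases were sequenced on an Illumina NovaSeq. The submitters' processing notes list RSEM 1.3.1, STAR 2.7.9a, Trimmomatic 0.36 and the build GRCm38, without their roles, and no annotation release is given in the sources used here. RSEM wrote the deposited tables per the file headers, and they hold RSEM expected counts, which share reads between genes they fit equally well, and TPM values, scaled to the same total in each library.

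Expected counts were rounded to whole numbers. GENCODE M21 gave symbols for 55141 of 55401 identifiers. Genes were filtered with filterByExpr of edgeR 4.0.16 (minimum count 10, minimum total 15), scaled by TMM and compared with edgeR's robust quasi-likelihood test, group as the only term, and p-values were adjusted by Benjamini-Hochberg over the 16751 genes tested. Calls are at an adjusted p under 0.05. Log2 fold changes are Dor cKO minus Dor WT; SE is the log2 fold change divided by the square root of F. Dor WT libraries held 17263830 and 21595832 counts and Dor cKO libraries 21162594 and 20928332, so that 3 counts lie between 0.138 and 0.173 CPM.

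The members and all lists were chosen with earlier results of these data known. All 34 members are named; where members of another list are named with values, they are its 3 called members with the highest mean CPM, other choices being stated as made after the values were seen. Slc1a3 is named as a tissue marker, Il6 for its near absence, and Pmch, Cga and Prl for being at 0 in the libraries stated. The lists of vessel, microglia, neuron, precursor and immediate early genes are given by counts alone. Alternatives were DESeq2 1.42.0, RLE and total count scaling, other filters, limma 3.58.1 on log2(TPM + 1) and log2(TPM + 0.1) for genes with at least 0.5 TPM in 2 libraries, a non-robust fit, a replicate block, leaving out each library, a set coefficient of variation, removal of a trend on length and GC content, a minimum fold change, and Gfap moved to the reactivity list. The centring on other astrocyte genes and the neutrophil list were added after the data were seen. The edgeR test was checked on counts simulated with the spread fitted to these libraries. Such a check cannot show whether that spread is technical.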

Additional observations from a re-analysis of the deposited data

How the results depend on the processing

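As reported, 2399 genes were called higher and 2248 lower over all genes. These were 1539 and 1383 with DESeq2, 569 and 593 with limma on log2(TPM + 1), 564 and 587 on log2(TPM + 0.1), 703 and 891 at a set coefficient of variation of 0.1, 466 and 684 with a minimum log2 fold change of 0.5, and 806 and 6861 centred on other astrocyte genes. Identity genes called higher and lower, 14 and 2 as reported, were 7 and 1 with limma on either pseudocount, 1 and 1 with the set coefficient of variation, 0 and 1 with the minimum fold change, and 6 and 6 when centred. Reactivity genes called higher, 11 as reported, were 4 with limma on either pseudocount, with the set coefficient of variation and with the minimum fold change; centred, 6 were higher and 2 lower. The identity median of 0.17 was 0.15 with total count scaling, 0.14 with limma on either pseudocount, 0.18 after correction for length and GC content, -0.036 when centred, and 0.15 to 0.17 when each library was left out. The reactivity median of 0.31 was 0.25 and 0.26 with limma on log2(TPM + 1) and log2(TPM + 0.1), 0.10 when centred, and 0.28 to 0.33 when each library was left out. With each library left out, identity genes called higher were 12 to 14 and reactivity genes 10 to 11.

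With the replicate number as a block, 2562 genes were higher and 2409 lower, 14 identity and 11 reactivity genes were called higher, and all 27 calls were kept. Deviations of same-numbered libraries from their group means correlated at -0.0177 across genes, so the numbers are not known to pair the samples.

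No called gene changed direction under the 16 alternatives other than the centring. Uncalled genes did: Ntsr2 went from -0.056 to 0.017, Cd44 from -0.15 to 0.031 and Mfge8 from -0.0035 to 0.083 over the fits that left out 1 library, and Mfge8 was -0.018 and Cd44 0.0053 after correction for length and GC content. Centring turned Gfap to -0.11, S100b to -0.034, Fgfr3 to -0.12, Slc4a4 to -0.039, Slc39a12 to -0.087, Bmpr1b to -0.087, Hepacam to -0.063, Mfge8 to -0.17, Vim to -0.057 and Nes to -0.081, by its construction. The cause of the other changes was not tested. With Gfap moved to the reactivity list, 13 identity and 12 reactivity genes were higher. At 2 libraries per group, small differences at low counts, such as that of Slc7a10, were not detectable.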

Other observations

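Genes of immature astrocytes and progenitors did not follow one direction in Dor cKO. Of 18 tested, 7 rose, 4 fell and 7 were not called, and the median log2 fold change was 0.086. Over all tested genes, 14.3% were called higher and 13.4% lower. The inhibitor of differentiation genes Id4 and Id3 rose by 0.32 (SE 0.03) and 0.26 (SE 0.03), and Ptprz1, a receptor phosphatase gene of precursors, fell by 0.066 (SE 0.02, edgeR adjusted p = 0.0416). On the same list Fabp7, a fatty acid binding protein gene of radial glia, went from 209 and 207 CPM to 171 and 167 CPM, and the thrombospondin gene Thbs1, which encodes a synapse-promoting secreted protein, went from 121 and 122 CPM to 172 and 182 CPM. These last genes were picked after their values were seen.

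Among the 30 other astrocyte genes, 1 fell. It was Dio2, the deiodinase gene that activates thyroid hormone in astrocytes and in tanycytes of the hypothalamus, at 63.8 and 64.9 CPM for Dor WT against 29.2 and 28.8 CPM for Dor cKO, a log2 fold change of -1.15 (SE 0.07, edgeR adjusted p = 1.99e-14). The largest rises on that list were Itih3, at 0.70 (SE 0.07), and Cbs, at 0.56 (SE 0.09). On the list of other reactive astrocyte genes, the members that fell were Hsbp1, at -0.10 (SE 0.03), and B3gnt5, at -0.58 (SE 0.14). Whether Hsbp1 marks reactive astrocytes was not tested. All genes named in this paragraph were picked after their values were seen.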
